A study of Homo sapiens with 15 samples.

Results

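Choice of the 3' end was examined for 98 ubiquitin ligase genes, 59 RNF genes and 39 TRIM genes, in HEK293T cells, a human embryonic kidney cell line, after knockdown of candidate regulators of alternative polyadenylation. The genes were all rows of the deposited table whose symbol is RNF or TRIM followed by a number, with or without 1 letter after it. They were 98 of 13056 genes. The rule itself used no measured value, though it was chosen with earlier results of these data known. Cells carried a short hairpin RNA (sh) against HDAC1, PABPN1, PCBP2, SF3B4, U2AF2 or ZNF384, with 2 libraries each, or the control hairpin shControl, with 3 libraries, 15 libraries in all. HDAC1 is a histone deacetylase, PABPN1 the nuclear poly(A)-binding protein, PCBP2 a poly(C)-binding protein, SF3B4 a subunit of the U2 snRNP, U2AF2 the splicing factor that binds the polypyrimidine tract, and ZNF384 a zinc finger transcription factor. The study's design text names the first 5 as regulators and does not name ZNF384. The labels give neither the time after knockdown nor the hairpins used, and every group shares the HEK293T background. The labels name both a nuclear RNA isolation and a total RNA kit, and the shControl library names carry a suffix, nuc, that the other library names lack. Its meaning is not stated, so a difference in preparation cannot be told apart from knockdown in any comparison with shControl.

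The measurement was the distal site usage index, PDUI, a fraction that estimates how many of the transcripts of a gene end at its distal poly(A) site. A PDUI of 1 stands for distal ends alone, and a low PDUI for mostly proximal ends and shorter 3' untranslated regions (UTRs). PDUI carries neither the RNA level of a gene nor the read depth behind a value, so depth is unknown and how far each hairpin lowered its target cannot be read from it. All 7 markers of HEK293 cells that were looked for had a row in the table, as did 1 of 10 markers of other cell types (COL1A1), which says only that the table covers those genes.

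RNF and TRIM proteins are for the most part ubiquitin ligases that use a RING finger to bring a charged E2 enzyme to a substrate. Most TRIM proteins join the RING finger to B-box zinc fingers and a coiled coil, and they differ in what follows at the carboxyl end. The RING-between-RING ligases among the RNF genes instead receive the ubiquitin on a cysteine of their own before passing it on. Where a transcript of such a gene is cut and polyadenylated sets how much 3' UTR it carries, and with it which microRNA and protein binding sites it holds.

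Cleavage usually follows the hexamer AATAAA, or its commonest variant ATTAAA. Of the 8 genes whose PDUI passed the test in at least 1 comparison with shControl, 7 held 1 of these hexamers near the transcript end. It lay in the last 50 bases of the annotated transcript, where RNF41 held neither. Those of 6 of these genes follow because PDUI estimates use of the distal site, whose position the labels do not give. The sequences come from the hg38 genome with transcript ends from GENCODE release 29. They are given 5' to 3' on the transcript strand with the hexamer in capitals. For TRIM33, RNF181 and RNF115 that release holds another version of the measured transcript, whose end may differ. The hexamers of TRIM33 and RNF181 were the variant ATTAAA, and those of RNF115, RNF215, RNF216 and RNF217 were AATAAA.
TRIM33 (chr1:114392794-114392823, minus strand): ttggttatttctATTAAAttagaaaattga
RNF181 (chr2:85597549-85597578, plus strand): ccttgaatcctcATTAAAggtttctttacc
RNF115 (chr1:145738873-145738902, minus strand): tttgcagtgttaAATAAAaatttattcccc
RNF215 (chr22:30368817-30368846, minus strand): aaggagtattatAATAAAaagctaagtttg
RNF216 (chr7:5620053-5620082, minus strand): gggacttttgtaAATAAAtgtttgtgcgct
RNF217 (chr6:125092598-125092627, plus strand): ttagcaatgcgtAATAAAagtttttaaaag

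Across all 98 RNF and TRIM genes, AATAAA stood in the last 50 bases of 63 transcripts (64.3%, against 60.6% of the other genes with an annotated transcript). ATTAAA alone stood there in 14 (14.3%, against 14% of the other genes), and neither hexamer in 21 (21.4%, against 25.4%). Only the transcript strand was searched, and a match is a description of these letters, not a mapped cleavage site.

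In shControl cells the RNF and TRIM genes spanned nearly the whole scale. Their mean PDUI in shControl had a median of 0.687, with 0.657 for RNF and 0.73 for TRIM genes, against 0.573 for all other genes. It was above 0.8 in 32 genes (32.7%, against 26.1% of the other genes) and below 0.2 in 12 (12.2%, against 16.6%). The order from the low end began with RNF8, which ubiquitinates histones beside DNA breaks, at 0.017 ± 0.006 (SD, n = 3). Next came RNF213, a very large ligase tied to moyamoya disease, at 0.033 ± 0.006 (n = 3), and TRIM44, at 0.04 ± 0.01 (n = 3). The libraries of RNF8 did not overlap those of RNF213, while RNF213 and TRIM44 overlapped.

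At the high end 7 genes stood at a PDUI of 1 in all 15 libraries. These were RNF139, RNF168, RNF185, RNF26, TRIM2, TRIM71 and TRIM73, or 7.78% of the 90 RNF and TRIM genes without a missing value, against 3.5% of the other such genes. RNF168 acts after RNF8 at DNA breaks, RNF185 and RNF139 are ligases of the endoplasmic reticulum membrane, and TRIM71 is an RNA-binding protein with an NHL domain. RNF8 and RNF168, which act in sequence in the same pathway, thus stood at opposite ends of the scale. TRIM73 and its near-identical copy TRIM74 differed in the table, with TRIM74 between 0.16 and 0.81 over the libraries, and reads of such copies may have been split, so both values are uncertain. The same holds for TRIM16 and TRIM16L.

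**Figure D1:**
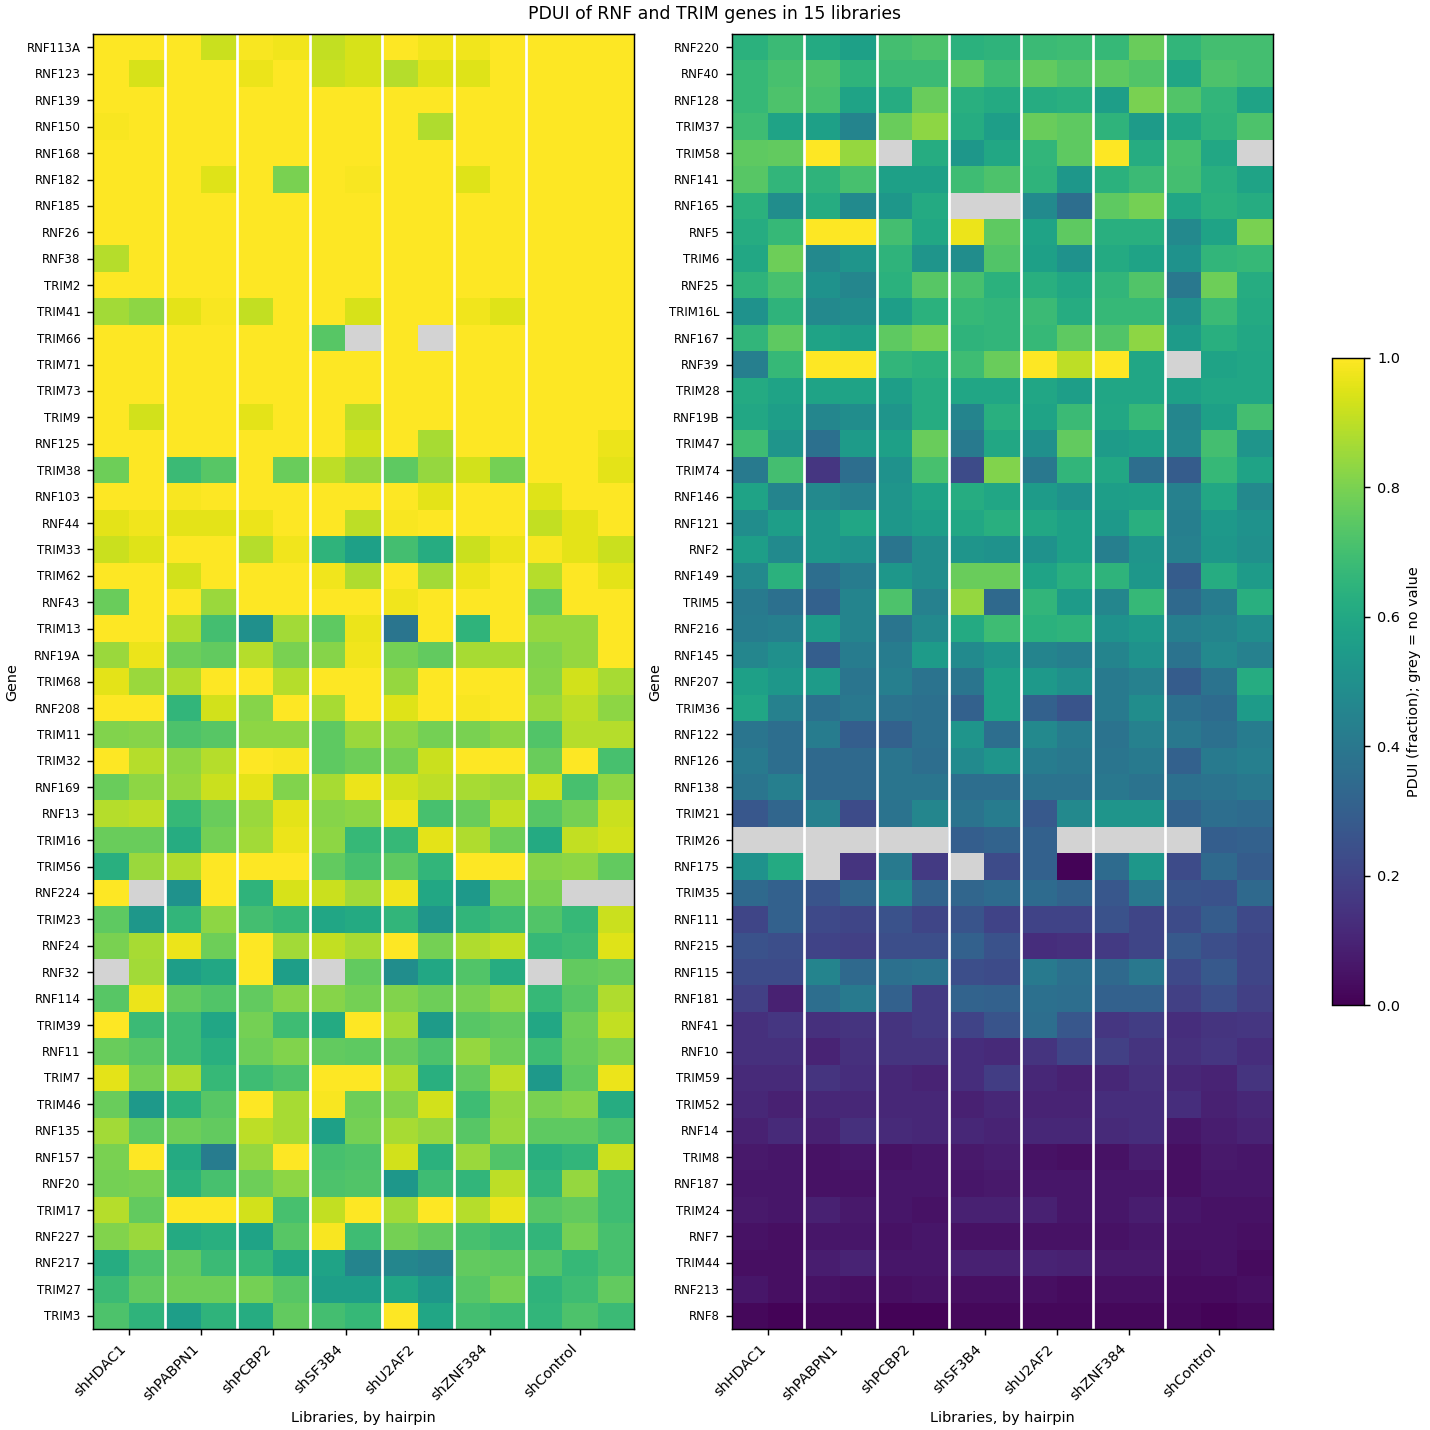
PDUI (fraction, colour) of the 98 RNF and TRIM genes, 1 row per gene ordered by mean PDUI in shControl, and 1 column per library, with the 6 knockdowns left of shControl. The 7 rows at 1 in every library keep 1 colour, and TRIM33 is darker in the 4 shSF3B4 and shU2AF2 libraries than in the other 11.

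Replicate libraries of a group differed as much for RNF and TRIM genes together as for the rest of the table. The median SD within groups was 0.0494 for RNF and TRIM genes and 0.0498 for all other genes. Taken apart, it was lower for RNF genes, at 0.0429, and higher for TRIM genes, at 0.0666. The range of the 7 group means had a median of 0.14 for RNF and TRIM genes together and for all other genes. That median was 0.121 for RNF genes and 0.193 for TRIM genes. The median PDUI of genes measured in all libraries was lowest in shControl replicate 1, at 0.51, then 0.53 and 0.54 in the shPABPN1 libraries, and lay between 0.57 and 0.61 in the other 12. Over the RNF and TRIM genes it was 0.64 in both shPABPN1 libraries and in shControl replicate 1, and 0.66 to 0.74 elsewhere. Values were missing in at least 1 library for 8 of the 98 genes. RNF165 had no value in either shSF3B4 library, and TRIM26 had none in either library of shHDAC1, shPABPN1, shPCBP2 or shZNF384.

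Each knockdown was first compared with shControl, which asks whether loss of the regulator moves 3' end choice in these genes. All genes of the table were fitted together in limma, and genes with an adjusted p below 0.05 were called changed (Benjamini-Hochberg over all genes tested). With shU2AF2, 7 of 95 tested RNF and TRIM genes were called, 4 higher and 3 lower, or 7.37%, against 7.27% of all genes tested, of which 5.88% were higher and 1.39% lower. With shSF3B4 it was 3 of 93, 2 higher and 1 lower (3.23%, against 5.42% of all genes, 4.26% higher and 1.16% lower), and with shPABPN1 3 of 95, all higher (3.16%, against 4.72% called and 3.99% called higher). None was called with shHDAC1 (0.0243% of all genes), shPCBP2 (1.17%) or shZNF384 (1.5%). At an unadjusted p under 0.05, there were 5 of 95 with shHDAC1 (5.26%, against 5.98% of all genes tested), 6 of 95 with shPCBP2 (6.32%, against 12.2%) and 10 of 96 with shZNF384 (10.4%, against 13.8%). In the same comparisons 1 gene was called without shHDAC1 replicate 2 and 1 without shPCBP2 replicate 1. The shares of RNF and TRIM genes called were thus near those of the whole table or below them. The 6 comparisons share the same 3 shControl libraries, so a gene called in more than 1 of them was not called independently.

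Genes whose knockdown libraries both lay outside the range of the shControl libraries were also about as frequent as in the whole table, or less frequent. There were 27 of 95 with shU2AF2 (28.4%, against 29% of all genes), 25 of 95 with shPABPN1 (26.3%, against 26%) and 24 of 93 with shSF3B4 (25.8%, against 25.4%). With shZNF384 there were 18 of 96 (18.8%, against 24.5%), with shPCBP2 12 of 95 (12.6%, against 21.6%) and with shHDAC1 6 of 95 (6.32%, against 15.3%).

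**Figure D2:**
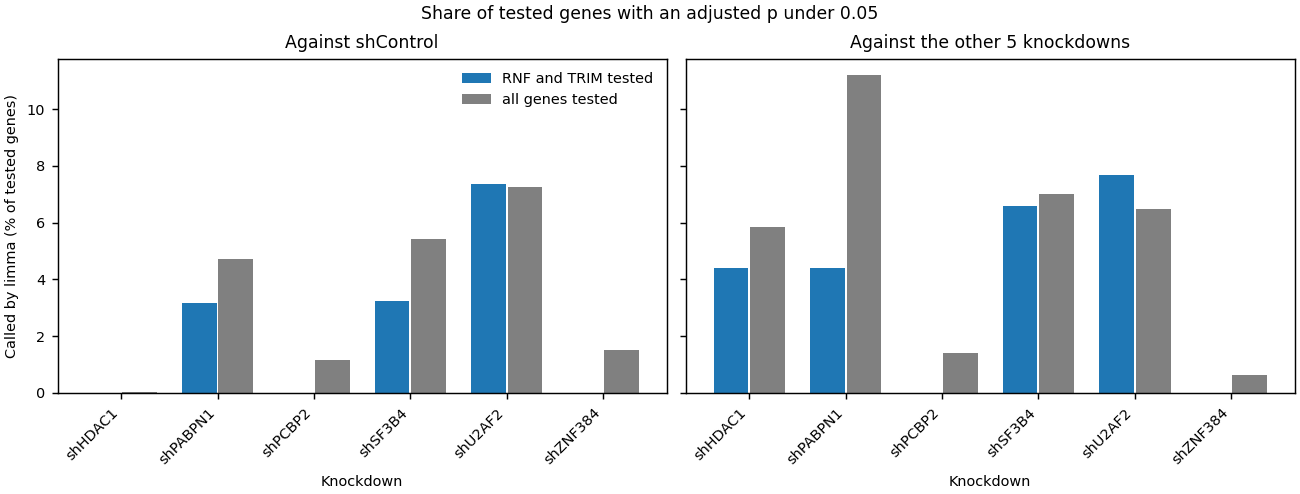
Share of tested genes called by limma at an adjusted p under 0.05 (percent, vertical axis from 0) in each knockdown, for RNF and TRIM genes (blue) and for all genes tested (grey), against shControl on the left and against the other 5 knockdowns on the right. The blue bars of shU2AF2, 7.37% and 7.69%, are the highest blue bars of their panels, and shPCBP2 and shZNF384 have no blue bar in either panel.

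TRIM33 showed the largest change from shControl among the called genes. TRIM33, also known as TIF1-gamma, is a chromatin-binding TRIM protein that acts on SMAD4 in TGF-beta signalling. Its PDUI was 0.65 and 0.57 in the shSF3B4 libraries and 0.7 and 0.62 in the shU2AF2 libraries, against 0.99, 0.96 and 0.92 in shControl. All 4 libraries of these splicing factor knockdowns lay below every other library in the study, where the lowest value was 0.89. In the other knockdowns TRIM33 stood at 0.92 and 0.95 with shHDAC1, 1 and 1 with shPABPN1, 0.89 and 0.98 with shPCBP2, and 0.92 and 0.97 with shZNF384.

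The difference of TRIM33 from shControl was -0.347 ± 0.037 with shSF3B4 (SE, adjusted p = 0.00083) and -0.297 ± 0.037 with shU2AF2 (adjusted p = 0.0013). Leaving out any 1 library of either comparison kept both calls, and with only the knockdown and shControl in the fit the adjusted p was 0.0521 for shSF3B4 and 0.0506 for shU2AF2. Against shPABPN1 cells, which had no proximal ends of TRIM33 at all by this measure, the gap was wider. The shPABPN1 mean exceeded the shSF3B4 mean by 0.39 ± 0.041 (adjusted p = 0.000539), in a comparison that called 9.82% of all genes. Between shSF3B4 and shU2AF2 TRIM33 had a difference of -0.05 ± 0.041, which did not pass the test (adjusted p = 0.688), where 3.95% of all genes were called. Such tests between pairs of knockdowns, 15 in all and each adjusted over all genes, were chosen after the values were seen. The annotated end of TRIM33 lies in a last exon of 5084 bases on chromosome 1, from 114392777 to 114397860 on the minus strand. Its coding sequence ends in that exon, which holds 4 copies of AATAAA and 3 annotated transcript ends.

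The RING-between-RING ligases RNF216 and RNF217 moved in opposite directions. RNF216, also called TRIAD3, builds ubiquitin chains in immune signalling and is mutated in Gordon Holmes syndrome. It read 0.61 and 0.69 with shSF3B4 and 0.64 and 0.65 with shU2AF2, against 0.43, 0.45 and 0.49 in shControl, so its transcripts ended more often at the distal site. The other knockdown libraries lay between 0.39 and 0.55, below all 4 of these. The rise was 0.193 ± 0.039 with shSF3B4 (adjusted p = 0.022) and 0.188 ± 0.039 with shU2AF2 (adjusted p = 0.0189).

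Leaving out single libraries ended both calls of RNF216. For shSF3B4 the adjusted p was 0.0638 without shControl replicate 1, 0.0613 without shControl replicate 2 and 0.157 without shSF3B4 replicate 2. For shU2AF2 it was 0.0551 and 0.0527 without those shControl libraries, 0.0876 without shU2AF2 replicate 1 and 0.111 without shU2AF2 replicate 2. A pseudogene, RNF216P1, could share reads with RNF216.

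RNF217, a RING-between-RING ligase with a membrane anchor, was lower with shU2AF2. It read 0.46 and 0.44 there, against 0.73, 0.67 and 0.71 in shControl, a difference of -0.253 ± 0.051 (adjusted p = 0.0159). The shSF3B4 libraries, at 0.58 and 0.45, also lay below shControl, with a difference of -0.188 ± 0.051 that did not pass (adjusted p = 0.0746). All other libraries read 0.59 or more, up to 0.76 with shPABPN1 and shZNF384. Leaving out shU2AF2 replicate 1 or 2 ended the call (adjusted p = 0.0761 and 0.107).

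RNF41 rose with shU2AF2. RNF41, or NRDP1, ubiquitinates the receptor ERBB3. It read 0.36 and 0.27 in the shU2AF2 libraries, against 0.13, 0.15 and 0.16 in shControl, and 0.14 to 0.18 with shHDAC1, shPABPN1, shPCBP2 and shZNF384. The shSF3B4 libraries, at 0.2 and 0.26, lay between the shU2AF2 libraries and all others. The difference from shControl was 0.168 ± 0.026 with shU2AF2 (adjusted p = 0.00377) and 0.083 ± 0.026 with shSF3B4, which did not pass (adjusted p = 0.116). The shU2AF2 call held without any 1 of the shU2AF2 or shControl libraries. With only shU2AF2 and shControl in the fit the adjusted p was 0.106.

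RNF215, a membrane RING protein whose function is little known, was the only RNF or TRIM gene called in opposite directions in shSF3B4 and shU2AF2 cells against the other 5 knockdowns. It read 0.31 and 0.25 with shSF3B4 and 0.13 and 0.14 with shU2AF2, against 0.28, 0.24 and 0.21 in shControl. The shU2AF2 values were the lowest of all libraries, where the others ranged upward from 0.17. Against shControl the difference was -0.108 ± 0.022 with shU2AF2 (adjusted p = 0.0182) and 0.037 ± 0.022 with shSF3B4, which did not pass (adjusted p = 0.51).

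The direct difference of RNF215, shSF3B4 minus shU2AF2, was 0.145 ± 0.024 (adjusted p = 0.013). It did not pass without shSF3B4 replicate 1 (adjusted p = 0.0755), without shU2AF2 replicate 1 (0.0679) or without shU2AF2 replicate 2 (0.0586), and the call against shControl was also lost without either shU2AF2 library (adjusted p = 0.111 and 0.0855). The last exon of the measured RNF215 transcript, 7210 bases long on chromosome 22, overlaps an exon of CCDC157, and its coding sequence ends before that exon. Whether reads of CCDC157 enter the value was not tested.

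RNF115 differed between knockdowns. RNF115, or RABRING7, is a RING ligase that binds the endosomal GTPase RAB7. It read 0.45 and 0.34 with shPABPN1, 0.41 and 0.37 with shU2AF2, 0.37 and 0.38 with shPCBP2, and 0.34 and 0.4 with shZNF384, against 0.22, 0.28 and 0.21 in shControl. With shHDAC1 it read 0.23 and 0.23, and with shSF3B4 0.24 and 0.23, inside the shControl range. The 8 libraries of shPABPN1, shU2AF2, shPCBP2 and shZNF384 did not overlap the other 7.

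The difference of RNF115 from shControl passed the test with shPABPN1, at 0.158 ± 0.033 (adjusted p = 0.0289), and with shU2AF2, at 0.153 ± 0.033 (adjusted p = 0.0238). With shPCBP2 it was 0.138 (adjusted p = 0.119) and with shZNF384 0.133 (adjusted p = 0.109), neither of which passed. The shPABPN1 call was lost without shControl replicate 3 (adjusted p = 0.0965) or shPABPN1 replicate 1 (0.174). The shU2AF2 call was lost without shControl replicate 1 (0.0676), shControl replicate 3 (0.0751), shU2AF2 replicate 1 (0.154) or shU2AF2 replicate 2 (0.069). The last exon of RNF115 is 8130 bases long, holds 6 copies of AATAAA and overlaps an exon of CD160.

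RNF181, a small RING-H2 ligase, has the shortest last exon of all 98 genes, at 137 bases. Of these, 80 follow the coding sequence, and the exon holds 0 copies of AATAAA and 1 annotated transcript end. RNF181 read 0.36 and 0.41 with shPABPN1, against 0.19, 0.24 and 0.19 in shControl, a difference of 0.178 ± 0.041 (adjusted p = 0.0412). The shU2AF2 libraries, at 0.37 and 0.36, had a difference of 0.158 ± 0.041 that did not pass (adjusted p = 0.0509). With shHDAC1 it was lowest, at 0.19 and 0.09. Leaving out any 1 of the 3 shControl or 2 shPABPN1 libraries ended the shPABPN1 call, with an adjusted p of 0.0643, 0.0626 and 0.122 without shControl replicates 1 to 3 and of 0.107 and 0.201 without shPABPN1 replicates 1 and 2.

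TRIM44 was called in the most comparisons with shControl, with small differences at the bottom of the scale. It lacks the RING finger of most TRIM proteins and carries a ubiquitin-binding zinc finger. It read 0.08 and 0.1 with shPABPN1, 0.09 and 0.09 with shSF3B4 and 0.1 and 0.09 with shU2AF2, against 0.04, 0.05 and 0.03 in shControl. None of these 6 libraries overlapped shControl, and shHDAC1 read 0.04 and 0.04, inside the shControl range. The shPCBP2 libraries read 0.06 and 0.06 and the shZNF384 libraries 0.07 and 0.07.

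The differences of TRIM44 from shControl were 0.05 ± 0.007 with shPABPN1 (adjusted p = 0.0036), 0.05 ± 0.007 with shSF3B4 (adjusted p = 0.00295) and 0.055 ± 0.007 with shU2AF2 (adjusted p = 0.00124). It was also the 1 gene of 91 tested that was called for the 6 knockdowns together, at 0.034 ± 0.005 above shControl (adjusted p = 0.00856), where 3.4% of all genes were called and 3.11% were higher. For the 6 together a second gene passed without shHDAC1 replicate 2, either shPABPN1 library, shPCBP2 replicate 2 or shU2AF2 replicate 1, giving 2 in each case. When each library was centred on its median, these 4 differences were 0.072, 0.022, 0.032 and 0.012, and none passed the test. The last exon of TRIM44 is the longest of the 98 genes, with 11650 bases and 12 copies of AATAAA.

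Other settings of the fit bore on most of these calls. With only 1 knockdown and shControl in the fit, none of the 13 calls against shControl passed, with adjusted p between 0.0506 (TRIM33 with shU2AF2) and 0.273 (RNF115 with shPABPN1). With libraries centred on their medians, RNF216 was not called with shSF3B4 (adjusted p = 0.086) or shU2AF2 (0.0629), nor RNF215 (0.0873) or RNF115 (0.0831) with shU2AF2. TRIM33, RNF41 and RNF217 kept their calls after centring, as did RNF115 and RNF181 with shPABPN1.

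**Figure D3:**
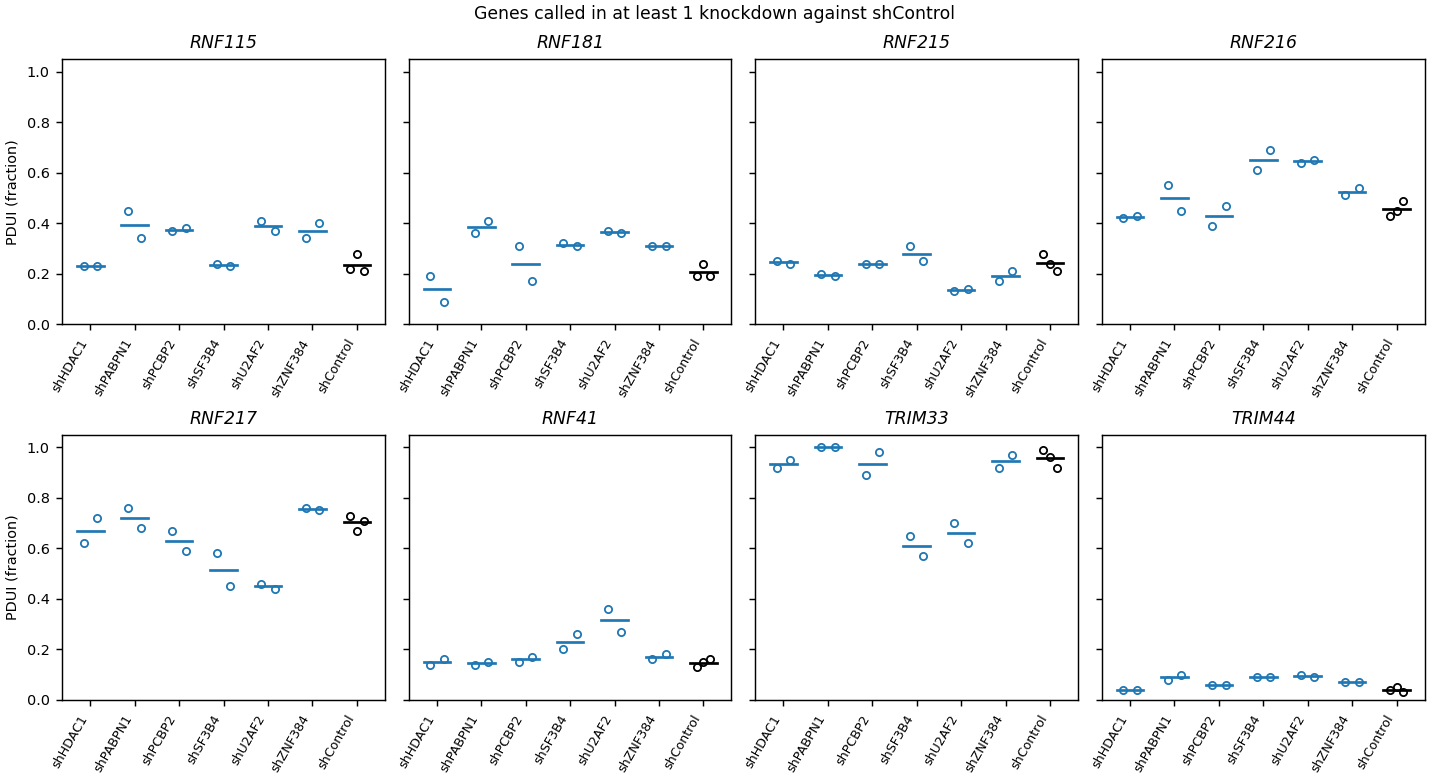
PDUI (fraction) in every library of the 8 RNF and TRIM genes called in at least 1 knockdown against shControl, with each circle 1 library and each bar the mean of its group, knockdowns in blue and shControl in black. TRIM33 drops with shSF3B4 and shU2AF2, RNF216 stands above shControl in the same libraries, and TRIM44 stays at or below 0.1 throughout.

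Each knockdown was next set against the mean of the other 5, a comparison that leaves the shControl values out of the difference. Of 91 RNF and TRIM genes tested, 7 were called with shU2AF2, 3 higher and 4 lower (7.69%, against 6.49% of all genes), and 6 with shSF3B4, 3 higher and 3 lower (6.59%, against 6.99%). With shPABPN1 2 were higher and 2 lower (4.4%, against 11.2%), and with shHDAC1 4 were lower (4.4%, against 5.84% called and 5.29% called lower). None was called with shPCBP2 (1.39% of all genes) or shZNF384 (0.646%), where 10 (11%, against 11.2% of all genes) and 7 (7.69%, against 12.4%) had an unadjusted p under 0.05. Leaving out 1 library moved these counts. Without shControl replicate 1, shPABPN1 had 11 calls, and it had 2, 1 and 2 without shControl replicate 2, shPABPN1 replicate 1 and shPABPN1 replicate 2. Without its replicates 1 and 2 in turn, shHDAC1 had 1 and 2 calls, shSF3B4 1 and 3, and shU2AF2 4 and 2, and shPCBP2 had 1 without its replicate 1.

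TRIM33 was called in 3 of these comparisons, lower with shSF3B4, at -0.285 ± 0.032 (adjusted p = 0.000747) and with shU2AF2, at -0.225 ± 0.032 (adjusted p = 0.00299), and higher with shPABPN1 by 0.183 ± 0.032 (adjusted p = 0.0104). The shPABPN1 call was lost without either of its libraries (adjusted p = 0.0852 and 0.0689), and the shU2AF2 call without shU2AF2 replicate 2 (0.0513). RNF41 was higher with shU2AF2 by 0.144 ± 0.022 (adjusted p = 0.00434), a call that held in all 11 alternatives. None of these left out a library of the other 5 knockdowns. RNF217 was lower with shU2AF2, at -0.208 ± 0.043 (adjusted p = 0.0218), and RNF216 higher with shSF3B4 by 0.145 ± 0.033 (adjusted p = 0.031) and with shU2AF2 by 0.139 ± 0.033 (adjusted p = 0.04). These 3 calls were lost without either library of the knockdown, with an adjusted p of 0.128 and 0.189 for RNF217, 0.0606 and 0.288 for RNF216 with shSF3B4, and 0.186 and 0.258 for RNF216 with shU2AF2. RNF216 was also lost without shControl replicate 2 (0.0504 with shSF3B4 and 0.0629 with shU2AF2) and, with shU2AF2, without shControl replicate 3 (0.053).

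RNF115, RNF181 and TRIM44 were lower with shHDAC1 than in the other knockdowns. The differences were -0.123 ± 0.028 for RNF115 (adjusted p = 0.0361), -0.183 ± 0.035 for RNF181 (adjusted p = 0.0155) and -0.041 ± 0.006 for TRIM44 (adjusted p = 0.00507). Against shControl the shHDAC1 difference of RNF115 was -0.007 and that of RNF181 -0.067, and neither passed (adjusted p = 1 and 0.908), while TRIM44 had the same mean in both, 0.04. RNF115 was likewise lower with shSF3B4, at -0.117 ± 0.028 (adjusted p = 0.0395), and TRIM44 higher with shU2AF2 by 0.025 ± 0.006 (adjusted p = 0.0367). RNF215 was higher with shSF3B4 by 0.079 ± 0.019 (adjusted p = 0.0382) and lower with shU2AF2, at -0.095 ± 0.019 (adjusted p = 0.0186). All of these calls were lost without 1 library or another, with an adjusted p of 0.0512 (shControl replicate 1), 0.229 and 0.215 (shHDAC1 replicates 1 and 2) for RNF115 with shHDAC1, of 0.198 (shHDAC1 replicate 2) for RNF181, and of 0.0656 and 0.058 (shHDAC1 replicates 1 and 2) for TRIM44 with shHDAC1. With shSF3B4, RNF115 had 0.0533 and 0.0518 (shControl replicates 1 and 3) and 0.199 and 0.227 (shSF3B4 replicates 1 and 2), and RNF215 0.0595 (shControl replicate 2) and 0.403 (shSF3B4 replicate 1). With shU2AF2, RNF215 had 0.151 and 0.12 (shU2AF2 replicates 1 and 2), and TRIM44 0.0516 (shControl replicate 1), 0.288 and 0.11 (shU2AF2 replicates 1 and 2).

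A further 6 genes were called in this comparison and in none with shControl. RNF5, a ligase of the endoplasmic reticulum membrane that marks misfolded proteins, read 1 and 1 with shPABPN1, against 0.62 and 0.67 with shHDAC1, 0.7 and 0.6 with shPCBP2, 0.97 and 0.75 with shSF3B4, 0.58 and 0.75 with shU2AF2, and 0.63 and 0.63 with shZNF384. The shPABPN1 libraries lay above every other library, and the difference was 0.31 ± 0.084 (adjusted p = 0.0469). The 3 shControl libraries, at 0.47, 0.58 and 0.8, were spread widely, and the difference from them, 0.383 ± 0.099, did not pass (adjusted p = 0.0656). The call against the other knockdowns was lost without shControl replicate 2 (adjusted p = 0.06), shPABPN1 replicate 1 (0.22) or shPABPN1 replicate 2 (0.188), and a pseudogene, RNF5P1, could share its reads.

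The other 5 were TRIM27, TRIM41, RNF126, RNF138 and RNF167, which lie outside the rule for named genes and are named after their values were seen. TRIM27, a nuclear TRIM protein first known as the RET finger protein, read 0.56 and 0.56 with shSF3B4 and 0.59 and 0.53 with shU2AF2. The other knockdown libraries read 0.68 to 0.79, and shControl 0.65, 0.69 and 0.76, so these 4 libraries were again the lowest of all 15, as for TRIM33. TRIM27 was lower than in the other 5 knockdowns, with a difference of -0.158 ± 0.036 with both shSF3B4 (adjusted p = 0.031) and shU2AF2 (adjusted p = 0.0333). Against shControl both differences were -0.14 ± 0.043 and did not pass (adjusted p = 0.112 and 0.0925). Leaving out either shSF3B4 library ended the first call (adjusted p = 0.191 and 0.175), and leaving out shControl replicate 2 (0.0524), shU2AF2 replicate 1 (0.0999) or shU2AF2 replicate 2 (0.316) the second.

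TRIM41 read 0.86 and 0.83 with shHDAC1, against 0.91 to 1 in the other knockdowns, with a difference of -0.128 ± 0.022 (adjusted p = 0.0101), and 1 in every shControl library. RNF126, which acts with BAG6 on mislocalised proteins, read 0.48 and 0.52 with shSF3B4, against 0.34 to 0.42 in the other knockdowns, with a difference of 0.118 ± 0.028 (adjusted p = 0.0382). RNF167, a ligase of endosomal and lysosomal membranes, read 0.58 and 0.56 with shPABPN1, against 0.65 to 0.83 in the other knockdowns, with a difference of -0.154 ± 0.039 (adjusted p = 0.0389). In all 3 genes the named knockdown did not overlap the other 5. In shControl RNF167 read 0.55, 0.63 and 0.6, so both shPABPN1 libraries lay inside the shControl range. RNF126 read 0.31, 0.41 and 0.43 in shControl, and its shSF3B4 difference from it, 0.117, did not pass (adjusted p = 0.0918). RNF138, a ligase of DNA end resection, read 0.34 and 0.34 with shPABPN1, against 0.36 to 0.43 in the other knockdowns. In shControl it read 0.37, 0.38 and 0.4. Its difference from the other knockdowns was -0.046 ± 0.012 (adjusted p = 0.0442), and 0.006 after centring of the libraries.

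Each of these 4 calls was lost without single libraries and under other settings. After centring, the adjusted p was 0.0603 for TRIM41 and 0.13 for RNF167, and on the logit scale it was 0.101 for TRIM41, 0.0528 for RNF167 and 0.0503 for RNF126. TRIM41 was not called without shHDAC1 replicate 1 or 2 (adjusted p = 0.0727 and 0.127), and RNF126 not without shControl replicate 2 (0.0506), shSF3B4 replicate 1 (0.127) or shSF3B4 replicate 2 (0.283). RNF167 was not called without shControl replicate 3 (0.0516), shPABPN1 replicate 1 (0.167) or shPABPN1 replicate 2 (0.182). RNF138 was not called without shControl replicate 2 (0.0561), shPABPN1 replicate 1 (0.203) or shPABPN1 replicate 2 (0.175). RNF126 and RNF138 have pseudogenes that could share reads.

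**Figure D4:**
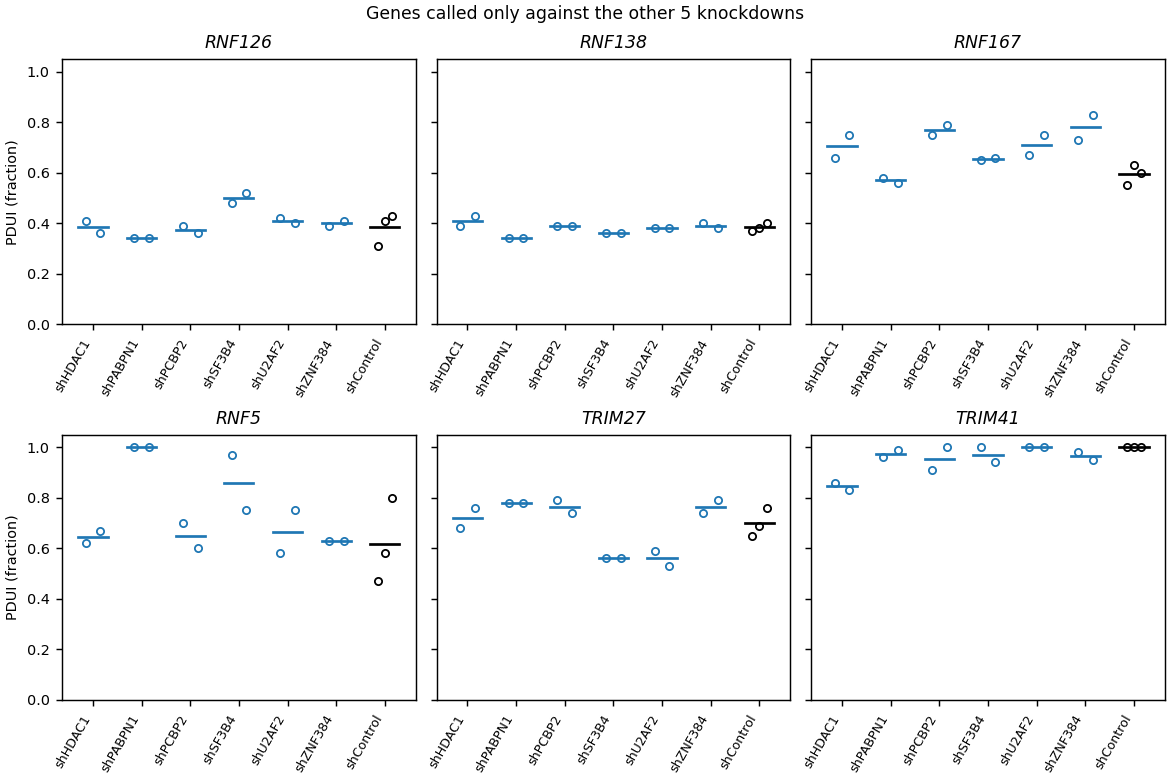
PDUI (fraction) in every library of the 6 RNF and TRIM genes called in a knockdown against the other 5 knockdowns and in none against shControl, with each circle 1 library and each bar the mean of its group. RNF5 stands at 1 in both shPABPN1 libraries, and TRIM27 is lowest in the shSF3B4 and shU2AF2 libraries.

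By role, 56 of the 98 genes were on a list. Of the 8 genes called against shControl, 5 were on none: RNF41, RNF115, RNF181, TRIM44 and RNF215, which is a membrane protein but was not on the membrane list. Of 14 measured genes of DNA damage and chromatin, TRIM33 was lower than in shControl with shSF3B4 and shU2AF2. None was called higher than in shControl in any knockdown. With 13 tested in each, that was 7.69%, against 5.42% of all genes with shSF3B4 and 7.27% with shU2AF2. Of 21 listed ligases anchored in membranes or the endoplasmic reticulum, RNF217 was lower than in shControl with shU2AF2 (4.76%, against 7.27% of all genes). The other 20 did not pass against shControl in any knockdown. Of 5 RING-between-RING ligases, RNF216 was higher with shSF3B4 (20%, against 5.42% of all genes), and with shU2AF2 RNF216 was higher and RNF217 lower (40%, against 7.27%). The other 3 did not pass. None of 12 genes of innate immunity passed against shControl, of which 12 were tested with shSF3B4 and 11 with each other knockdown, nor any of 3 microtubule-associated TRIM genes with a COS box or of 4 TRIM genes with an NHL domain. The median differences of the innate immunity list, -0.0117 with shU2AF2 and 0.0567 with shZNF384, stood beside 0.0117 and 0.0233 over all genes tested.

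Of 22 genes with textbook roles that were listed, 19 had a row, and RNF4, RNF31 and TRIM25 were not analysed here. TRIM33 and RNF216 passed against shControl, both with shSF3B4 (10.5% of the 19, against 5.42% of all genes) and with shU2AF2 (10.5%, against 7.27%), and the other 17 did not. Of those 17, TRIM37 lay below all shControl libraries with shPABPN1, with a difference of -0.147 (adjusted p = 0.218). TRIM37 lay above them with shPCBP2, with 0.143 (adjusted p = 0.359), and with shU2AF2, with 0.103 (adjusted p = 0.391). TRIM21 read 0.52 and 0.52 with shZNF384, against 0.32, 0.36 and 0.35 in shControl (difference 0.177, adjusted p = 0.284). It also lay above shControl with shPCBP2 and shSF3B4. TRIM28, the corepressor of KRAB zinc finger proteins, was among the steadiest, at 0.56 to 0.62 in the knockdown libraries and 0.57 to 0.59 in shControl. Its relative TRIM24, of the same family as TRIM33, stayed low, at 0.05 to 0.09 in the knockdowns and 0.05 to 0.06 in shControl. The shSF3B4 libraries of TRIM24, at 0.09 and 0.09, and the shPABPN1 libraries, at 0.09 and 0.07, lay above all shControl libraries. Neither difference passed. These 3 genes thus had means in shControl of 0.957 (TRIM33), 0.583 (TRIM28) and 0.053 (TRIM24).

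Of 4 other ligases of chromatin and nuclear signalling, none passed. RNF20 and RNF40, which form the ligase of histone H2B, read 0.53 to 0.9 and 0.65 to 0.76 in the knockdowns, against 0.66 to 0.84 and 0.59 to 0.72 in shControl. RNF2, the catalytic subunit of Polycomb complex PRC1, read 0.39 to 0.57 in the knockdowns and 0.44 to 0.53 in shControl. RNF111, a SUMO-guided ligase of TGF-beta signalling also called Arkadia, read 0.2 to 0.31 in the knockdowns and 0.22 to 0.29 in shControl. Outside the shControl range lay both libraries of shU2AF2 for RNF111, with a difference of -0.047 (adjusted p = 0.524), and both of shU2AF2 and of shZNF384 for RNF40, with 0.075 and 0.07 (adjusted p = 0.431 and 0.551).

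Several textbook genes varied widely between replicates of a group. TRIM5, which recognises retroviral capsids, read 0.84 and 0.34 in the shSF3B4 libraries, against 0.34, 0.42 and 0.63 in shControl. TRIM32, an NHL-domain ligase of muscle, read 1 and 0.89 with shHDAC1 and 0.77, 1 and 0.71 in shControl. RNF43, which removes Frizzled receptors from the cell surface, read 0.77 and 1 with shHDAC1 and 0.76, 1 and 1 in shControl.

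Outside the symbol rule, 53 of 64 listed RING ligases with other names had a row. This list and the list of partners below were written with earlier results of these data known. Against shControl 5 were higher and 2 lower with shSF3B4 (13.5% of those tested, against 5.42% of all genes), and 4 higher and 3 lower with shU2AF2 (13.5%, against 7.27%). With shPABPN1 3 were higher and 1 lower (7.84%, against 4.72%), with shPCBP2 1 higher and 1 lower (3.85%, against 1.17%), with shZNF384 1 higher (1.89%, against 1.5%), and none was called with shHDAC1. PCGF5, a Polycomb RING protein, was at 1 ± 0 with shPABPN1, shPCBP2, shU2AF2 and shZNF384 (SD, n = 2 each), against 0.693 ± 0.035 in shControl (n = 3). Among 38 measured partners of these ligases, 4 were called with shPABPN1 (10.5%, against 4.72% of all genes), 2 with shZNF384 (5.26%, against 1.5%) and none with shHDAC1. With shPCBP2, shSF3B4 and shU2AF2 3 were called each (7.89%, against 1.17%, 5.42% and 7.27% of all genes). UBA6, an enzyme that charges E2 proteins, was called in 2 directions, at 0.21 ± 0.014 with shPABPN1 and 0.195 ± 0.021 with shPCBP2, but 0.08 ± 0 with shSF3B4 and 0.1 ± 0 with shU2AF2, against 0.143 ± 0.006 in shControl. Of the SMAD proteins on which TRIM33 and RNF111 act, SMAD2 was higher with shPABPN1, at 0.195 ± 0.021 (adjusted p = 0.00112), and with shPCBP2, at 0.17 ± 0.014 (adjusted p = 0.0197), against 0.103 ± 0.012 in shControl. Against the other 5 knockdowns SMAD2 was higher with these and lower with shSF3B4, with a difference of -0.071 (adjusted p = 0.00122), and with shU2AF2, with -0.035 (adjusted p = 0.0454). SMAD3 and SMAD4 were not called against shControl. Against the other 5 knockdowns SMAD3 was higher with shPABPN1, and SMAD4 lower with shSF3B4, with a difference of -0.073 (adjusted p = 0.022).

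The last exons of RNF and TRIM genes were longer than those of the rest of the table, with a median of 2088 bases, against 1366 in the other genes. They held 2 or more copies of AATAAA in 55 of 98 genes (56.1%, against 43.4%), and 2 or more annotated transcript ends in 77 (78.6%, against 70.3%). They overlapped an exon of another gene in 24 (24.5%, against 25.6%). Length did not order the levels: across the 98 genes, Spearman's rho between last exon length and mean PDUI in shControl was 0.0675, against 0.141 across 12558 other genes, given as a description because genes share libraries. RNF181, with 137 bases, and TRIM44, with 11650, both stood low, at 0.207 and 0.04. All 98 transcripts were found in GENCODE release 29, 54 of them with the same version.

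**Figure D5:**
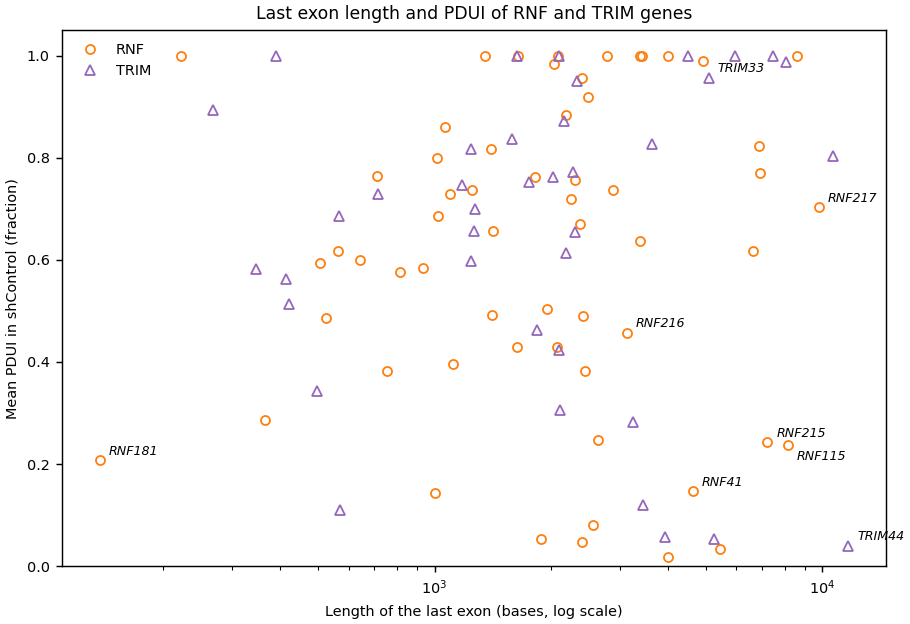
Length of the last exon (bases, log scale) against mean PDUI in shControl (fraction) for the 98 RNF and TRIM genes, RNF as circles and TRIM as triangles, with the 8 genes called against shControl named. The named genes lie at both ends of the length scale, RNF181 at 137 bases and TRIM44 at 11650 bases, and between 0.04 and 0.957 in PDUI.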

How the data were processed

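The authors deposited 1 table of PDUI values, a fraction from 0.001 to 1, with 1 transcript for each of 13056 genes and 1 column per library. The genome build is hg38, per the submitters' processing notes, and the aligner, site caller and annotation were not named in the labels (not given in the sources used here). Libraries were grouped by their titles, and for shSF3B4, whose replicate numbers differ between titles and library names, columns were assigned to the group only and keep the number in their heading as a name. No columns were left unmapped.

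Values entered limma 3.58.1 (R 4.3.3) as deposited, without normalisation or pseudocount. All 15 libraries were fitted with 1 mean per group and eBayes with a trend on the mean, giving 8 residual degrees of freedom and a prior of 1.06. A gene was tested where both libraries of the knockdown and at least 2 of shControl had a value, and against the other knockdowns with a value in all 12 knockdown libraries. Tests were two-sided, adjusted by Benjamini-Hochberg within each comparison over all genes, and called at 0.05. The fit was tested on simulated data. PDUI values carry no counts, so no interval that needs a depth is given, and the labels do not say that replicates are separate cultures, so p-values measure the spread between these samples.

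The genes, role lists, lists of other ligases and partners, and comparisons were chosen with earlier results of these data known. Named were the genes called against shControl whose knockdown libraries all lay beyond the shControl range, genes called for all knockdowns together, genes of textbook role, the lowest and highest in shControl, those missing in a whole group, and up to 4 called genes per other list. Last exons and hexamers came from GENCODE release 29 by transcript identifier. The sequence of 1 hexamer window is not reported here. Alternatives were centring on library medians, the logit scale (values kept between 0.01 and 0.99), no variance trend, complete genes only, entries of 0.001 as missing, a minimum difference of 0.1, fits of 1 knockdown with shControl, leaving out each library, and a replicate block.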

Additional observations from a re-analysis of the deposited data

How the results depend on the processing

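Counts of called RNF and TRIM genes moved most when fewer libraries entered the fit. Against shControl, with only the knockdown and shControl fitted, the counts were 0 for shPABPN1, 1 for shSF3B4 and 0 for shU2AF2, in fits with fewer samples to estimate the spread. With libraries centred on their medians they were 1 for shSF3B4 and 3 for shU2AF2 (1 higher, 2 lower), and on the logit scale 1 for shZNF384. Against the other 5 knockdowns, centring gave 1 for shHDAC1, 3 for shSF3B4 and 2 for shU2AF2, and no variance trend gave 7 for shPABPN1. For the 6 together, centring and the minimum difference of 0.1 each gave 0. The cause was not tested.

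Leaving out 1 library at a time gave 0 to 1 calls against shControl for shHDAC1 and shPCBP2, 2 to 3 for shPABPN1 and shSF3B4, 5 to 6 for shU2AF2 and 0 for shZNF384. Against the other 5 it gave 1 to 4 for shHDAC1, 1 to 11 for shPABPN1, 0 to 1 for shPCBP2, 1 to 6 for shSF3B4, 2 to 6 for shU2AF2 and 0 for shZNF384, and for the 6 together 1 to 2. Counts need not be of the same genes: of the 7 called with shU2AF2 against shControl, 3 (RNF41, TRIM33 and TRIM44) kept their call without either shU2AF2 library, beside 2 newly called each time. A group left with 1 library was assumed to vary like the others. Only libraries of shControl and of the knockdown named were left out. Those of the other 5 knockdowns stayed in, except for the 6 together, where every library was left out in turn. By gene, TRIM33 against shControl kept its call in 11 of 12 alternatives with shSF3B4 and 13 of 14 with shU2AF2, RNF41 in 13 of 14 with shU2AF2, and RNF181 in 5 of 14 with shPABPN1.

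After centring, RNF138 with shPABPN1 against the other 5 was 0.006, the 1 difference that changed sign. The replicate block, fitted without shSF3B4, called 4 genes with shU2AF2 (2 higher, 2 lower), against 7 without the block in the same libraries, and the calls of RNF115 (adjusted p = 0.158), RNF216 (0.0582) and RNF217 (0.0648) were lost. With shPABPN1 both gave 2, TRIM44 and RNF5 with the block and TRIM44 and RNF115 without it (RNF115 adjusted p = 0.198 with the block), and no block value was had for shSF3B4 or against the other 5 knockdowns. Over 30 pairs of same-numbered libraries, the correlation of their deviations from the group means was -0.012 to 0.045, with none over 0.1. The 2 deviations of a knockdown mirror each other, so many of these pairs repeat a value. A low correlation over all genes cannot decide whether the numbers pair the samples. The fit without the block and without shSF3B4 was chosen after seeing the data. No depth is known for any value, and each knockdown has 2 libraries.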
